A study of Mus musculus with 6 samples.

Results

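The miR-200 family was followed in mouse liver under a soy-enriched diet. It was taken as 9 mature arms listed by name in the deposited read-count table, out of 1907 mature microRNAs in that table. The arms were fixed by name, but earlier results of these data were known when they were chosen. Liver small RNA of 6 male mice of mixed background was sequenced, with 1 library per mouse. A group of 3 mice ate granulated chow made of 75% regular food and 25% soy bean powder for 4 weeks, and a group of 3 mice ate 100% granulated regular food. The labels give an age of 12 weeks for both groups, and the question was whether the soy diet changes liver microRNAs. Column names and library identifiers of the tables matched the labels, but no measurement in the files shows which diet a mouse ate. Every direction given here therefore rests on the labels, and all signs would turn if the diets were exchanged in them.

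MicroRNAs are short RNAs that are cut from a hairpin and guide the silencing of messenger RNAs, mostly through pairing of their seed, bases 2 to 8. Each hairpin can give an arm from its left side (5p) and an arm from its right side (3p), and usually a single arm is kept in quantity. The miR-200 family is made mainly by epithelial cells, where it represses Zeb1 and Zeb2, transcription factors that switch off epithelial genes such as E-cadherin. In liver, bile duct cells are epithelial in this sense, whereas hepatocytes hold little of the family. These were libraries of whole tissue, so fewer cells of a type and less RNA per cell cannot be told apart.

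The 5 hairpins lie in 2 clusters, at positions given here on GRCm38 (RefSeq and GENCODE M21), which describe that annotation and not the mapping done by the authors. Mir429 (chr4:156053905-156053987), Mir200a (chr4:156054896-156054985) and Mir200b (chr4:156055681-156055750) follow each other on the minus strand, with 908 and 695 bases between them. All 3 lie in an intron of the protein-coding gene Ttll10 and inside the non-coding transcript Gm13648, of which Mir429 overlaps an exon. Mir141 (chr6:124717914-124717985) and Mir200c (chr6:124718322-124718390) are on the minus strand of chromosome 6 with 336 bases between them, in an intron of the non-coding gene Gm15884 and between Phb2 and Ptpn6, and Mir141 also overlaps an exon of Gm29008. The 3p arms carry the counts of this family and are shown for that reason, from RefSeq (GRCm38.p6), 5′ to 3′, with the seed in capitals.
mmu-miR-141-3p: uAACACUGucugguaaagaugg
mmu-miR-200a-3p: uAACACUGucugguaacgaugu
mmu-miR-200b-3p: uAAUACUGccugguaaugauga
mmu-miR-200c-3p: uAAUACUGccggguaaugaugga
mmu-miR-429-3p: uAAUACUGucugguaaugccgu

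The 3p arms fall into 2 seed groups that do not follow the clusters. miR-141-3p of chromosome 6 and miR-200a-3p of chromosome 4 share the seed AACACUG. miR-200b-3p and miR-429-3p of chromosome 4 and miR-200c-3p of chromosome 6 share AAUACUG. No other microRNA of the table with a RefSeq mature sequence carried either seed, among 1623 names that matched. The sequences are close to each other, which bears on how reads can be told apart. Counted from 1 at the 5′ end, miR-200a-3p and miR-141-3p have 20 of 22 bases in common (C17A and U22G, miR-200a-3p first). miR-200b-3p and miR-200c-3p also have 20 of 22 in common (U11G and A22G, miR-200b-3p first), and miR-200c-3p is listed as 1 base longer. How the authors assigned reads that end before such a base is not given in the sources used here.

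The family was a small part of the liver microRNAs. The libraries held 10032094 to 12762916 reads in soy and 5727546 to 10325712 in regular livers. The 9 arms together took 3311, 2549 and 2969 reads in soy livers, against 2264, 2113 and 1512 reads in regular livers. That is 0.0254% to 0.0292% of all microRNA reads in soy and 0.0205% to 0.0264% in regular livers, so the shares overlapped. Counts per 1000000 reads (CPM), relative to library sizes scaled by edgeR's TMM method, gave a family sum of 269.3, 253.6 and 297.4 CPM in soy livers, against 221.3, 211.2 and 242.0 CPM in regular livers. On this scale every soy library was above every regular library, so the separation of the family sums depends on the scaling. For comparison, miR-122-5p, the microRNA that marks hepatocytes, had 16438 to 22452 CPM in soy livers and 19607 to 26243 CPM in regular livers.

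All 5 of the 3p arms were read in every library, and the 4 listed 5p arms were scarce or absent. miR-200b-3p was the 120th most read microRNA of the table, miR-141-3p the 125th, miR-429-3p the 131st, miR-200a-3p the 154th and miR-200c-3p the 312th. In soy livers the order of mean levels was miR-141-3p, miR-200b-3p, miR-429-3p, miR-200a-3p and miR-200c-3p, at 89.2 ± 21.5, 72.5 ± 8.61, 72.2 ± 9.98, 36.3 ± 12.8 and 3.06 ± 0.765 CPM (SD, n = 3). In regular livers the order was miR-200b-3p, miR-429-3p, miR-141-3p, miR-200a-3p and miR-200c-3p, at 74.1 ± 8.75, 54.7 ± 4.42, 49.3 ± 4.99, 41.8 ± 10.7 and 2.97 ± 2.12 CPM (SD, n = 3). The libraries of miR-141-3p, miR-200b-3p and miR-429-3p overlapped each other in soy livers, where miR-200a-3p lay below all 3. In regular livers those of miR-429-3p, miR-141-3p and miR-200a-3p overlapped each other, and miR-200b-3p lay above all 3. miR-200c-3p lay below every other 3p arm in all 6 libraries. These are read levels, and how evenly the kit captured each arm was not tested.

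**Figure D1:**
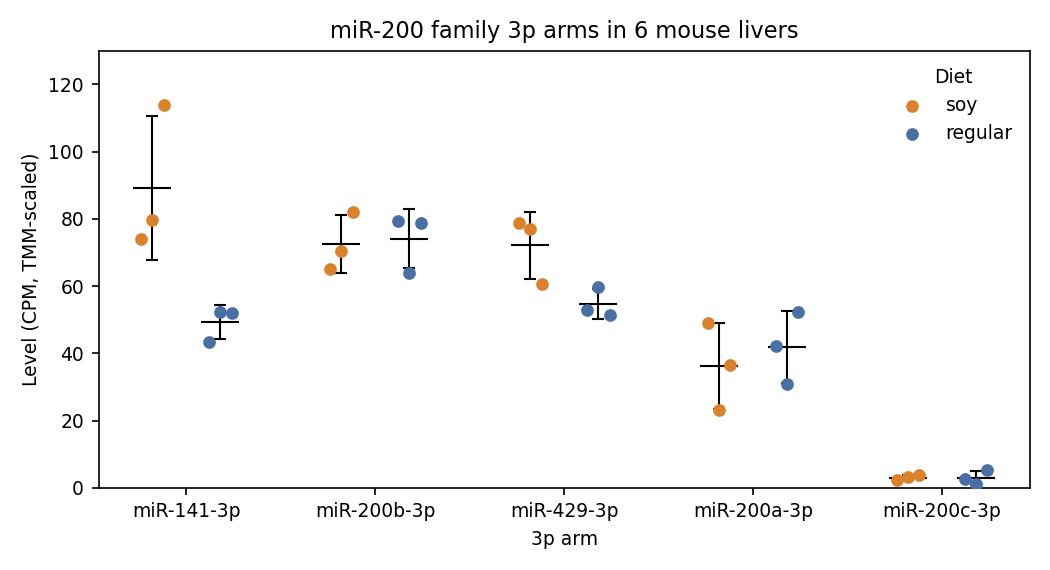
Level of each 3p arm in CPM (relative to the TMM-scaled library size) in soy livers (orange, left) and regular livers (blue, right). Each point is a mouse, and the black line and bar are the mean and SD of 3 mice. The soy and regular points are apart for miR-141-3p and miR-429-3p and overlap for the other arms.

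miR-141-3p, a repressor of Zeb mRNAs with the AACACUG seed, was the arm with the largest difference among the 3p arms. It had 911, 802 and 1136 reads in soy livers, against 445, 523 and 325 reads in regular livers. In CPM these were 74.1, 79.8 and 113.8 in soy and 43.5, 52.3 and 52.0 in regular livers. Every soy library was above every regular library, and soy replicate 3 was the highest of the 6. The same held for reads relative to the unscaled totals, 71.4, 79.9 and 111.6 CPM in soy livers, against 43.4, 50.7 and 56.7 CPM in regular livers. The log2 fold change was 0.86 ± 0.24 (SE), with a 95% interval of 0.31 to 1.40. By edgeR's quasi-likelihood test over all 437 microRNAs that reached 4 reads in 3 or more libraries, it had an unadjusted p of 0.00574 and an adjusted p of 0.696 (Benjamini-Hochberg), the third smallest p of the table, and did not pass the threshold of 0.05. Without soy replicate 3 the log2 fold change was 0.64 (unadjusted p = 0.0362, edgeR).

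**Figure D2:**
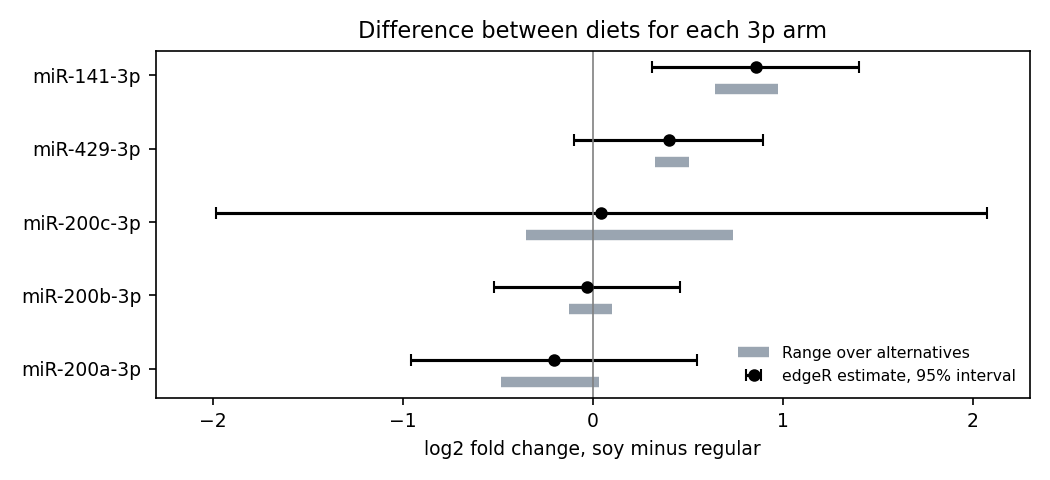
log2 fold change of the 3p arms, soy minus regular. Points with whiskers are edgeR estimates with 95% intervals, and grey bars span the values under 15 alternative settings. The interval of miR-141-3p, 0.31 to 1.40, lies above 0, whereas the intervals of the other arms include 0.

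miR-429-3p, which carries the AAUACUG seed, likewise had no regular library at or above its lowest soy library. Its reads were 970, 773 and 606 in soy livers, against 541, 598 and 322 in regular livers. As levels these were 78.9, 76.9 and 60.7 CPM in soy livers and 52.9, 59.8 and 51.5 CPM in regular livers. The gap was narrow, since soy replicate 3 stood just above regular replicate 2. The log2 fold change was 0.40 ± 0.22 (SE, 95% interval -0.10 to 0.90) and the test was not passed (adjusted p = 0.982 in edgeR). Among all microRNAs tested, 7.32% had every soy library above every regular library.

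miR-200b-3p and miR-200a-3p, the cluster partners of miR-429-3p on chromosome 4, overlapped between the diets. miR-200b-3p, of the same seed as miR-429-3p, was at 65.1, 70.5 and 81.9 CPM in soy livers, against 79.5, 64.0 and 78.7 CPM in regular livers. Its log2 fold change was -0.03 ± 0.22 (SE, 95% interval -0.52 to 0.46), with a sign that turned in 4 of the 15 alternatives. miR-200a-3p, of the same seed as miR-141-3p, was at 49.0, 23.3 and 36.6 CPM in soy livers, against 42.2, 30.9 and 52.3 CPM in regular livers. Soy replicate 2 was the lowest of the 6 and regular replicate 3 the highest, and without either of them the sign turned (0.034 and 0.004 on the log2 scale). With all libraries its log2 fold change was -0.20 ± 0.34 (SE, 95% interval -0.96 to 0.55). The adjusted p was 0.982 for both in edgeR.

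The 3p arms of chromosome 6, cut from hairpins that lie side by side, differed in reads by more than any pair of 3p arms on chromosome 4. miR-200c-3p, of the AAUACUG seed, had 28, 31 and 38 reads in soy livers, against 26, 11 and 33 reads in regular livers. miR-141-3p therefore had 32.5, 25.9 and 29.9 times the reads of miR-200c-3p in soy livers, and 17.1, 47.5 and 9.85 times in regular livers. In no library was the ratio below 9.85. On chromosome 4 miR-200b-3p had 1.33 to 3.03 times the reads of miR-200a-3p over the 6 libraries, and miR-429-3p 0.654 to 1.21 times those of miR-200b-3p. For miR-200c-3p, the exact binomial 95% interval of the 11 reads in regular replicate 2 ran from 0.532 to 1.91 CPM of the total. That of the 33 reads in regular replicate 3 ran from 3.97 to 8.09, for counting error only. These intervals did not meet, but they belong to the lowest and highest of the regular libraries, and no test compared the libraries. The log2 fold change of miR-200c-3p was 0.05 ± 0.91 (SE, 95% interval -1.98 to 2.08, adjusted p = 0.982 in edgeR). This interval includes a difference of the size seen for miR-141-3p. The hairpins are shown, from RefSeq, with both mature arms in capitals, 5p arm first, since the reads of the cluster come from the right arm of each.
Mir141 hairpin: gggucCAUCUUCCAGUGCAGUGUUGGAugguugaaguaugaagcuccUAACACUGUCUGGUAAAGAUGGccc
Mir200c hairpin: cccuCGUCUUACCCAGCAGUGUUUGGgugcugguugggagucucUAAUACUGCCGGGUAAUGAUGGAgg

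**Figure D3:**
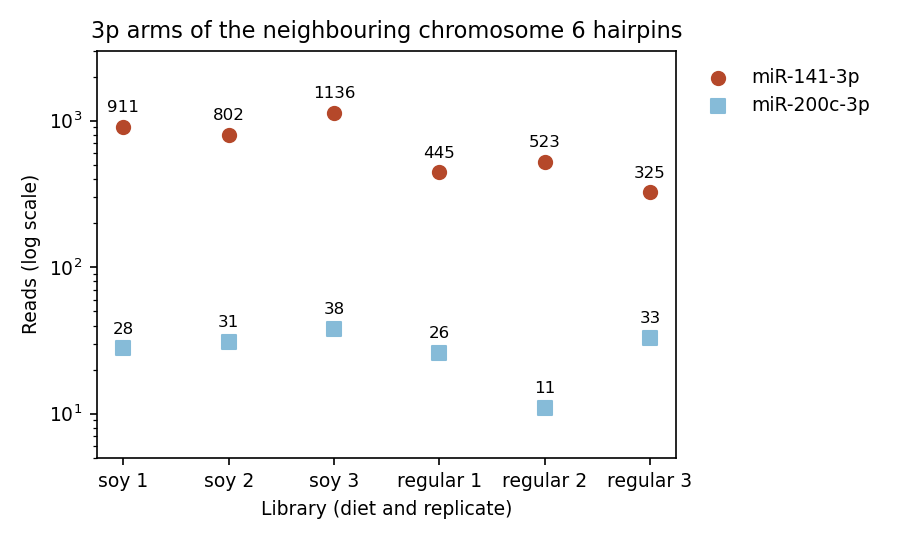
Reads of miR-141-3p (circles) and miR-200c-3p (squares) in each library, on a log axis, soy libraries on the left and regular libraries on the right. miR-141-3p has 325 to 1136 reads and miR-200c-3p 11 to 38 reads, and the points are at least 9.85-fold apart in every library.

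The 5p arms, which are the passenger strands of this family, had few reads. miR-200a-5p had 0, 0 and 4 reads in soy livers, against 7, 26 and 4 reads in regular livers. On the CPM scale the soy libraries were all below the regular ones, but the closest values were 0.401 CPM in soy replicate 3 and 0.640 CPM in regular replicate 3, from 4 reads each. Its regular libraries alone met the filter of 4 reads in 3 or more libraries, so it entered the test through the group where it is higher. Its separation is therefore not read as a difference between the diets. The adjusted p of miR-200a-5p was 0.982 in edgeR. Its fitted fold change depends on how counts of 0 are treated and is not given. Among all microRNAs tested, 5.49% had every soy library below every regular library. miR-141-5p had 9 reads in regular replicate 3 and 0 in every other library. miR-200b-5p had 2 reads in soy replicate 3, 6 reads in regular replicate 2 and 0 elsewhere. miR-200a-5p and miR-200b-5p share a seed. miR-200c-5p was at 0 in all libraries, as was miR-429-5p, the remaining arm of the miR-429 hairpin. For a count of 0, 3 reads of the library's total were taken as the upper limit of the level. This limit was 0.235 to 0.299 CPM in the soy libraries and 0.29 to 0.524 CPM in the regular libraries.

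The balance between arms was on the 3p side for every hairpin. Of the reads of the miR-200a hairpin, 98.9% to 100% were 3p in soy livers and 92.2% to 98.8% in regular livers. The lowest share, 92.2%, was in regular replicate 2, where 26 reads were 5p and 309 were 3p. For the miR-200b hairpin 99.8% to 100% were 3p in soy and 99.1% to 100% in regular livers, and for the miR-141 hairpin 100% in soy and 97.3% to 100% in regular livers. All reads of the miR-200c and miR-429 hairpins were 3p.

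Among the 6 members that entered the test, 0 were called by edgeR (0.0% of all 437 microRNAs were called), and 1, miR-141-3p, had an unadjusted p under 0.05, as did 5.03% of all microRNAs tested, 2.29% with higher levels in soy. DESeq2 and limma-voom also called 0 members. Over all microRNAs tested edgeR called 0, with 22 at an unadjusted p under 0.05, limma-voom called 0 and DESeq2 called 2. Of the 6 tested members, 3 had higher and 3 lower mean levels in soy by log2 fold change, with a median of 0.008. Over all microRNAs tested the median was -0.02, and 48.5% were higher. Of the 5 arms that had reads in every library, which leaves out miR-200a-5p, 3 were higher and 2 lower, with a median of 0.05. miR-200c-5p, miR-200b-5p and miR-141-5p did not pass the filter.

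The clusters were compared as sums, given as values with no test. The miR-200c and miR-141 arms together had 76.4, 82.9 and 117.6 CPM in soy livers, against 46.0, 53.4 and 58.7 CPM in regular livers, so the groups did not overlap. The miR-200a, miR-200b and miR-429 arms together had 192.9, 170.8 and 179.8 CPM in soy livers, against 175.3, 157.8 and 183.2 CPM in regular livers, and overlapped. The chromosome 6 sum is made almost wholly of miR-141-3p. By seed, the arms with AACACUG had 103.1 to 150.4 CPM in soy livers and 83.2 to 104.3 CPM in regular livers, and overlapped. The arms with AAUACUG had 146.2 to 150.6 CPM in soy livers and 124.8 to 135.5 CPM in regular livers, and did not overlap on this scale. Relative to unscaled totals they were at 140.9, 150.8 and 143.7 CPM in soy livers, against 134.7, 121.0 and 147.9 CPM in regular livers, and overlapped, whereas the chromosome 6 sum stayed apart.

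The make-up of the family reads was set beside these levels. miR-141-3p took 27.5%, 31.5% and 38.3% of the family reads in soy livers, against 19.7%, 24.8% and 21.5% in regular livers, with no overlap. miR-200b-3p took 24.2%, 27.8% and 27.6% in soy livers, against 35.9%, 30.3% and 32.5% in regular livers, again with no overlap, although its own CPM overlapped. Such shares sum to 100% within a library, so a larger share of an arm lowers the others. miR-429-3p took 20.4% to 30.3% in soy and 21.3% to 28.3% in regular livers. miR-200a-3p took 9.18% to 18.2% in soy and 14.6% to 21.6% in regular livers. Whether the difference between the diets in miR-141-3p is unlike that of the other arms was not tested.

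**Figure D4:**
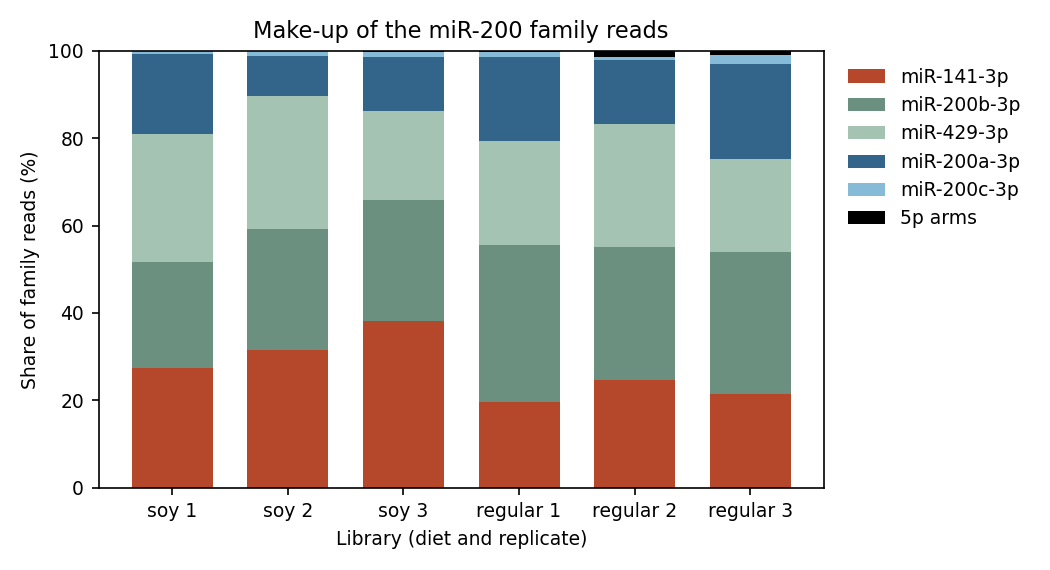
Share of the family reads, in percent, taken by each 3p arm and by the 5p arms together, in each library, soy libraries on the left. The miR-141-3p segment is 27.5% to 38.3% in soy and 19.7% to 24.8% in regular livers, and the miR-200b-3p segment is 24.2% to 27.8% in soy and 30.3% to 35.9% in regular livers.

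Correlations between 3p arms ranged from -0.613 to 0.266 within a cluster and from -0.291 to 0.758 between clusters. Over the 6 libraries, which share depth and scaling, the Pearson correlation of log2 CPM was 0.266 for miR-200a-3p with miR-200b-3p, -0.402 for miR-200a-3p with miR-429-3p, -0.613 for miR-200b-3p with miR-429-3p and 0.262 for miR-141-3p with miR-200c-3p. The highest was between clusters, 0.758 for miR-200b-3p with miR-200c-3p, which share a seed and 20 of 22 bases. miR-200a-3p and miR-141-3p also share a seed and 20 of 22 bases, and had the lowest value between clusters, -0.291. For miR-141-3p with miR-429-3p it was 0.545 over all libraries and -0.724 once the mean of each diet was removed. With these means removed, it was -0.924 for miR-200b-3p with miR-429-3p and 0.789 for miR-200b-3p with miR-200c-3p. It was -0.671 for miR-200c-3p with miR-429-3p, and -0.292 to 0.453 for the remaining pairs. The values of miR-200c-3p rest on 11 to 38 reads per library. With 6 points these are descriptions only.

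Among the 431 tested microRNAs outside the family, those closest to the chromosome 4 sum over the 6 libraries were miR-5122, miR-10b-5p and miR-146a-5p (Pearson r of log2 CPM 0.939, 0.937 and 0.895, Spearman rho 1, 0.943 and 0.714). Without the 2 libraries farthest from the median, r was 0.892, 0.911 and 0.444. Closest to the chromosome 6 sum were miR-1199-5p, miR-30d-3p and miR-21a-3p (r = 0.965, 0.963 and 0.962, rho 0.941, 0.943 and 0.943), with r of 0.974, 0.953 and 0.819 without the 2 farthest libraries. miR-30d-3p, a passenger strand, had 69.2 to 77.1 CPM in soy livers and 52.8 to 61.8 CPM in regular livers. miR-21a-3p, the passenger strand of a microRNA raised in injured tissue, had 239.0 to 433.0 CPM in soy livers and 150.4 to 215.9 CPM in regular livers. miR-10b-5p, a microRNA of the Hox clusters, had 363.7 to 1542 CPM in soy livers and 255.4 to 657.1 CPM in regular livers. miR-1199-5p had 0.407 to 1.10 CPM in soy livers and 0 in regular livers, and miR-5122 no more than 6.02 CPM in any library, so these rest on few reads. miR-1199-5p passed the filter through its soy libraries alone, the group where it is higher. Like the chromosome 6 sum, miR-1199-5p, miR-30d-3p and miR-21a-3p had every soy library above every regular library. Their r values therefore carry the split between the diets, and values within the diets were not computed for them. The highest of 431 correlations over 6 points are high by selection.

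Other epithelial microRNAs gave a background for the family. Of 14 listed, 9 were tested, 5 with higher and 4 with lower mean levels in soy and 0 called, with a median log2 fold change of 0.03. miR-182-5p, the most abundant of them and part of a cluster known from sensory epithelia, had 1897 to 4004 CPM in soy livers and 1576 to 3157 CPM in regular livers. miR-31-5p, of epithelial and bile duct cells, was at 684.0 ± 24.9 CPM in soy livers and 694.6 ± 58.0 CPM in regular livers (SD, n = 3). The summed level of the list was 3312 to 5673 CPM in soy livers and 2866 to 4652 CPM in regular livers, and overlapped. Its highest library was soy replicate 1, where miR-141-3p was the lowest of the soy libraries. The part of these microRNAs' cells in the miR-141-3p values was not tested. miR-205-3p and miR-34c-3p were at 0 in every library.

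Markers of other cell types were set beside the family, since pancreas and blood cells can accompany liver tissue. Of the 6 pancreas names 4 were in the table and 2 were tested, 1 higher and 1 lower in soy and 0 called. The list summed to 13.8, 101 and 163 CPM in soy livers, against 9.78, 52.1 and 66.1 CPM in regular livers. It was nearly all miR-375-3p, a microRNA of endocrine cells that some other epithelia also make, at 13.8, 101 and 155 CPM in soy livers and 8.80, 49.6 and 64.3 CPM in regular livers. In soy livers it was lowest where miR-141-3p was lowest and highest where miR-141-3p was highest, in replicate 3, and its groups overlapped. In regular livers both were lowest in replicate 1. There miR-375-3p was highest in replicate 3, and miR-141-3p, in TMM-scaled CPM, in replicate 2 (52.3, against 52.0 in replicate 3). edgeR called miR-375-3p in 2 of the settings tried, without a filter on low counts and with the replicate number as a block, and not otherwise. miR-217-5p, an acinar microRNA, had 56 reads in soy replicate 3, 4 in regular replicate 2 and 0 elsewhere, miR-216b-5p 30 reads in soy replicate 3 and 21 and 11 in regular replicates 2 and 3, and miR-216a-5p 10 reads in regular replicate 1 alone. Their part in the level of miR-141-3p was not tested.

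The leukocyte list was the only one of the 6 marker lists whose sums did not overlap, at 2939, 2706 and 3550 CPM in soy livers, against 2147, 2368 and 2067 CPM in regular livers. Of its 6 members 5 had higher and 1 lower mean levels in soy. The lower one was miR-142a-3p, the other arm of the miR-142a hairpin, with a log2 fold change of -0.07. edgeR called 0 members of the list, with 2 at an unadjusted p under 0.05, as were 5.03% of all microRNAs tested. Its most abundant members were miR-146a-5p, induced by inflammatory signals, at 1449 ± 163 CPM in soy livers and 1214 ± 188 CPM in regular livers, and miR-142a-5p of blood-derived cells, at 1383 ± 283 CPM in soy livers and 820.2 ± 302 CPM in regular livers (SD, n = 3). As for miR-141-3p, soy replicate 3 was the highest library of the sum. Without a filter on low counts edgeR called miR-142a-5p and miR-150-5p, a lymphocyte microRNA at 143.1 ± 25.7 CPM in soy livers and 78.9 ± 18.8 CPM in regular livers (SD, n = 3), and with the replicate number as a block it called miR-142a-5p. The part of these cells in the miR-141-3p values was not tested.

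The remaining lists overlapped between the diets. The hepatocyte list, led by miR-192-5p and miR-148a-3p, summed to 289764 to 337191 CPM in soy livers and 269971 to 353095 CPM in regular livers, with 3 of 6 members higher and 3 lower. The mesenchymal and stellate list, led by miR-143-3p and miR-199a-5p, summed to 18657 to 24975 CPM in soy livers and 15887 to 23792 CPM in regular livers, with 3 of 6 higher and 3 lower. The erythroid list, led by miR-451a and miR-144-5p, summed to 1406 to 1435 CPM in soy livers and 793.9 to 1901 CPM in regular livers, with 3 of 5 higher and 2 lower. edgeR called no member of these 3 lists. At an unadjusted p under 0.05 were 1 hepatocyte member, miR-148a-3p, and 1 mesenchymal member, miR-145a-5p, as were 5.03% of all microRNAs tested. The libraries of miR-148a-3p overlapped between the diets. miR-145a-5p of the mesenchymal list, a microRNA of smooth muscle and stellate cells, was at 49.6 ± 4.96 CPM in soy livers and 96.6 ± 11.2 CPM in regular livers (SD, n = 3; log2 fold change -0.96, adjusted p = 0.295 in edgeR), and was called as lower in soy by DESeq2 and by edgeR with the replicate number as a block.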

How the data were processed

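Small RNA libraries from liver (TruSeq kit) were sequenced as single-end reads, per the labels. The deposited read table holds whole counts per mature microRNA, unnormalized by the authors. A second deposited table has log2 values, and it leaves out values below 4 reads. The authors state that they scaled by DESeq2's geometric means. The values of this table instead equal reads scaled by the ratio of library totals, summed over microRNAs with at least 4 reads in the library. Aligner, genome build and miRBase release: not given in the sources used here. Every column matched a label.

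Libraries were grouped by diet, 3 soy and 3 regular. MicroRNAs that reached 4 reads in 3 or more libraries (437) were fitted with edgeR 4.0.16 in R 4.3.3 (quasi-likelihood test, TMM scaling, no covariate, Benjamini-Hochberg adjustment over all of them, threshold 0.05). Errors, 95% intervals and CPM came from this fit. Alternatives were DESeq2 1.42.0, limma-voom and limma on the log2 values (limma 3.58.1), other filters and scalings, the replicate number as a block, and each library left out. Intervals and limits at 0 reads cover counting error only.

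Named were the 9 members, miR-429-5p, any microRNA with the seed of a 3p member, the 3 most similar to each cluster sum, and the 2 most abundant of each of 6 marker lists. miR-122-5p, miR-205-3p, miR-34c-3p, miR-216a-5p, miR-217-5p, miR-150-5p, miR-142a-3p and those called under an alternative fall outside this rule and were chosen after their values were seen. Members and lists were chosen with earlier results of these data known. All 9 members, and 1623 of 1907 names, matched RefSeq mature sequences (GRCm38.p6).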

Additional observations from a re-analysis of the deposited data

How the results depend on the processing

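Under 15 alternatives, miR-141-3p stayed higher in soy (log2 fold change 0.64 to 0.97, adjusted p 0.0981 to 0.892), as did miR-429-3p (0.33 to 0.51), and 0 members were called under any. The number of microRNAs called over the table, 0 in edgeR, was 2 with DESeq2 (miR-145a-5p and miR-455-3p, both lower in soy by the labels), 8 without a filter on low counts and 5 with the replicate block (miR-142a-5p, miR-145a-5p, miR-215-5p, miR-375-3p and miR-455-3p), and 0 with any library left out. Replicate numbers did not pair the libraries, with correlations of deviations of 0.133, -0.082 and 0.04 for same-numbered libraries, and with the block miR-141-3p was at 0.84 (adjusted p = 0.0981, edgeR). The sign of the weak differences turned. miR-200b-3p was at 0.053 without a filter. miR-200c-3p was at -0.045 with total reads alone. With a library left out, the log2 fold changes ranged from -0.481 to 0.034 for miR-200a-3p, from -0.127 to 0.101 for miR-200b-3p and from -0.351 to 0.739 for miR-200c-3p. The cause was not tested. miR-200a-5p could not be fitted with the log2 values or with at least 10 reads, since it lacks values there. Sums relative to unscaled totals were chosen after seeing the data, and by them the family and AAUACUG sums overlapped between the diets. For miR-200c-3p, at 11 to 38 reads, counting error and the spread between mice were not separated.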
